A study of Mus musculus with 4 samples.

Results

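Fatty acid oxidation and the handling of short-chain fatty acids were followed through 35 mouse genes in CD11c+ cells of the mesenteric lymph node. The genes were chosen by name, for the carnitine shuttle, the enzymes of the oxidation cycle, the electron transfer flavoproteins, the PPAR receptors, and the transport and activation of acetate, propionate and ketone bodies. All 35 were found among 55450 gene rows, and 33 of them passed the filter on low counts that kept 18297 genes for testing. The agonist group had 2 libraries, from cells cultured for 6 h with 10 µM of an Ffar2 agonist, whose chemical name the labels do not state. The control group had 2 libraries, from cells cultured for 6 h with water. All cells came from WT C57BL/6J mice of unstated age, carried no engineered allele, and were enriched for CD11c with magnetic beads, so other leukocytes can remain. In each pool the cells of 2 nodes were combined and then divided between an agonist and a control well, and the pools are called pool 2 and pool 3 after the numbers in the sample titles. The labels do not state how many mice gave these nodes.

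Short-chain fatty acids such as acetate, propionate and butyrate are made by gut bacteria, signal through receptors such as Ffar2 and also serve as fuel. Long-chain fatty acids are activated to acyl-CoA, carried into mitochondria by the carnitine shuttle and shortened in repeated rounds of dehydrogenation, hydration, dehydrogenation and thiolysis, with electrons leaving through the electron transfer flavoproteins. Shorter acids enter mitochondria without the shuttle. Acetate is activated by acetyl-CoA synthetases, and propionyl-CoA is carboxylated on its way to the citric acid cycle. PPAR receptors are lipid-activated transcription factors that switch on many of these genes in liver, muscle and fat.

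Reads in genes numbered 49509736 and 59902172 in the agonist libraries, against 43238375 and 52417584 in the control libraries. The dendritic cell core list, which includes the CD11c gene Itgax and the class II genes, had reads for 10 of 10 genes, with a summed level of 24332 and 22478 CPM (reads per library size, scaled by TMM) in the agonist and 28184 and 19553 CPM in the control libraries. Of 14 T cell markers, 12 had their highest level in control replicate 2. Adipocyte markers summed to 4.60 and 10.7 CPM in the agonist and 7.14 and 11.5 CPM in the control libraries, with Lep and Adrb3 at 0 reads in all 4. In bulk samples such as these, fewer cells of a type and less RNA per cell cannot be told apart.

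RefSeq (GRCm38.p6) promoter windows were found for 31 of the 35 genes, 36 windows in all. The 250 bases before the start are shown for 4 genes that the results below turn on: the transporter gene with no reads, the transporter gene that was read, the dehydrogenase gene with the largest difference in the agonist wells and the dehydrogenase gene that separated the pools. Capitals mark the GC box GGGCGG, on either strand, in the first 3, and the nuclear receptor half-site AGGTCA, on either strand, in Acadm.
Slc5a8, chr10:88885742-88885991, plus strand: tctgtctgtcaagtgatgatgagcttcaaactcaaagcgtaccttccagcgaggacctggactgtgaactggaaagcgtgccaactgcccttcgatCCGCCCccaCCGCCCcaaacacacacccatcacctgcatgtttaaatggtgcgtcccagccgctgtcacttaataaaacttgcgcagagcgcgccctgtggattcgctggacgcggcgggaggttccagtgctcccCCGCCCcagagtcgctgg
Slc16a1, chr3:104638414-104638663, plus strand: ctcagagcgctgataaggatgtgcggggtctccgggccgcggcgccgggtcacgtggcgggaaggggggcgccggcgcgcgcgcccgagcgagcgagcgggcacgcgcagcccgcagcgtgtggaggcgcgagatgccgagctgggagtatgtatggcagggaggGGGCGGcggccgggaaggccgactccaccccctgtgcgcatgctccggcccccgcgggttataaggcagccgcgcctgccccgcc
Acadl, chr1:66863310-66863559, minus strand: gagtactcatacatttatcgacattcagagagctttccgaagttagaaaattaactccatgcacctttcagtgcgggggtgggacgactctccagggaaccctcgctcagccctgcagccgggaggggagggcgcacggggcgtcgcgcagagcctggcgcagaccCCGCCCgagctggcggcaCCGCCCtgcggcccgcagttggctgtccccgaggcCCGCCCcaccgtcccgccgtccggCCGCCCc
Acadm, chr3:153944644-153944893, minus strand: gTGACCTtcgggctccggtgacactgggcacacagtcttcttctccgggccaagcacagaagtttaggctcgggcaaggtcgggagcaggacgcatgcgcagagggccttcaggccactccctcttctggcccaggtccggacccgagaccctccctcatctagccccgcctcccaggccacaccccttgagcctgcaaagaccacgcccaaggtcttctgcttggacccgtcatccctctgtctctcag
The GC box was present in 24 of the 36 windows (66.7%), against 32.7% of the 32851 windows in the table. The half-site was present in 7 of 36 (19.4%), against 14% of the table. The PPAR response element, a direct repeat of that half-site with 1 base between the copies, was in 0 of 36 windows and in 0.0335% of the table. The windows held a median of 14 CpG dinucleotides, against 6 in the table, with 17 in Slc5a8 and 37 in Slc16a1. The table holds windows of genes with and without reads, and no windows of like CpG content were compared. A match describes these letters only, and binding was not measured.

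The mitochondrial pathway was read from carnitine shuttle to electron transfer, and Slc16a1, Acss1 and Pccb of the short-chain genes lay in the lower part of the order. Levels of different genes were compared as CPM per kilobase of the principal annotated transcript, averaged over the 4 libraries. The carnitine-acylcarnitine carrier gene Slc25a20 (96.7 CPM per kilobase) and the medium-chain dehydrogenase gene Acadm (94.6) led. They were followed by Etfdh (77.0), which passes electrons to ubiquinone, by the flavoprotein alpha subunit gene Etfa (66.5) and by Hadhb (60.4), the beta subunit of the trifunctional protein. From Acaa2 (34.4 CPM per kilobase) down to Pcca (6.87) each gene's range over the libraries overlapped that of the next. The last genes with a measurable level were Ppard (0.908 CPM per kilobase), Slc16a1 (0.795) and Ppargc1b (0.269). Of 34 pairs of neighbours in the order, 30 had overlapping ranges. The 4 steps without overlap lay below Hadhb, Pcca, Slc16a1 and Ppargc1b.

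**Figure D1:**
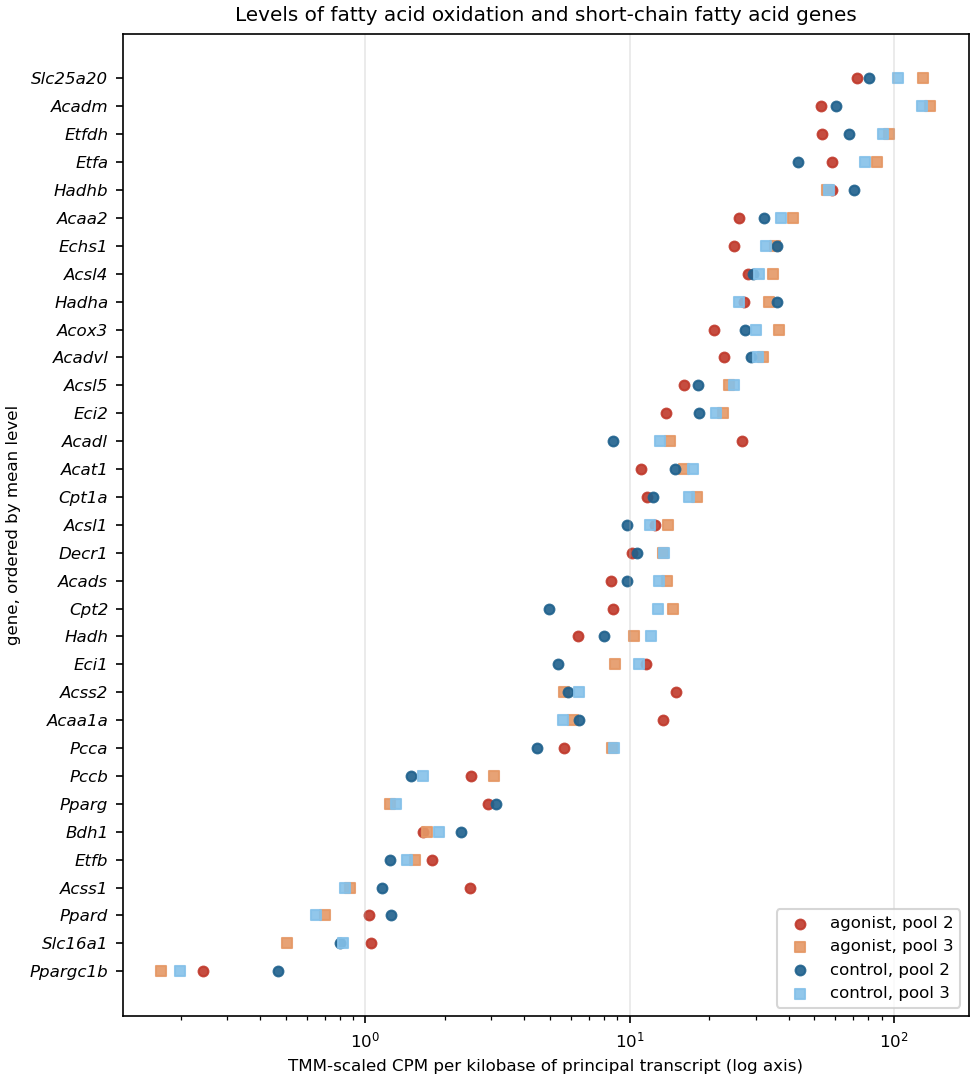
Level of each gene in the 4 libraries, as TMM-scaled CPM per kilobase of the principal transcript on a log axis; circles are pool 2 and squares pool 3, red and orange agonist, dark and light blue control. The order runs from Slc25a20 (mean 96.7) to Ppargc1b (mean 0.269); Ppara and Slc5a8 had libraries at 0 and are left off.

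Some places in this order depend on how reads were counted. With all annotated exons merged in place of the principal transcript, a length chosen after seeing the data, Etfa came first, Slc25a20 had rank 3, and Echs1, the short-chain enoyl-CoA hydratase gene, had rank 18 instead of 7. Etfb, the partner subunit of Etfa, had rank 29. Of its exon length 53% is shared with Gm45233 on the same strand, and reads that overlap several genes were not counted for any. Of the exon length of Acadvl, the very long-chain dehydrogenase gene, 42.9% is shared with Dvl2 on the opposite strand. The kit does not mark strand, so both levels can be undercounted.

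Of the transporter genes Slc16a1 and Slc5a8, only Slc16a1 was read. Slc5a8 (ENSMUSG00000020062.7, GRCm38 chromosome 10, 88885992 to 88929515), the sodium-coupled carrier of butyrate and other short-chain acids in colon epithelium, had 0 reads in each of the 4 libraries. A count of 0 allows up to 0.0577 and 0.0529 CPM in the agonist libraries and up to 0.0689 and 0.0574 CPM in the control libraries (3 counts per library, counting error only). Slc16a1 (ENSMUSG00000032902.1, chromosome 3, 104638668 to 104658462), which encodes the proton-coupled carrier MCT1, had 241 and 127 reads in the agonist and 155 and 190 reads in the control libraries. Its level was 4.64 and 2.24 CPM in the agonist libraries, against 3.56 and 3.64 CPM in the control libraries. Agonist replicate 2 was the highest and agonist replicate 3 the lowest, on either side of both controls. Agonist over control gave a log2 fold change of -0.07 (SE 0.52), with a 95% interval of -1.33 to 1.20. From the lists of related genes, the transporter genes Slc5a12 and Slc16a8 and the synthetase genes Acsm1, Acsm5, Acss3 and Acsl6 also had 0 reads in every library. Other transporter genes of these lists were read. Slc16a3 had 98.3 and 76.7 CPM in the agonist and 93.2 and 65.5 CPM in the control libraries. Its mean was 19.2 CPM per kilobase, against 0.795 for Slc16a1. Slc16a6 and Slc16a7 were read as well.

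Acetate-activating enzymes were higher in a single agonist library. Acss2 (chromosome 2, 155517948 to 155585724), the synthetase of cytosol and nucleus, had 43.9 and 16.5 CPM in the agonist libraries, against 17.1 and 18.8 CPM in the control libraries. Acss1 (chromosome 2, 150618105 to 150668500), its mitochondrial counterpart, had 9.00 and 3.16 CPM in the agonist libraries, against 4.18 and 3.02 CPM in the control libraries. In both genes agonist replicate 2 stood above the other 3 libraries, and agonist replicate 3 lay close to the controls. The log2 fold changes were 0.75 (SE 0.49, 95% interval -0.43 to 1.94) for Acss2 and 0.75 (SE 0.60, 95% interval -0.69 to 2.20) for Acss1. Neither passed edgeR's quasi-likelihood test (adjusted p = 0.9999 for each). Without agonist replicate 2, which leaves the pools unequal between the groups, the log2 fold changes were -0.08 for Acss2 and -0.16 for Acss1. Per kilobase, Acss2 exceeded Acss1 by 6.02 and 6.46 times in the agonist libraries and by 5.04 and 7.66 times in the control libraries. This depends on the length used: with all exons merged the means were closer, 2.37 for Acss2 and 1.17 for Acss1.

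**Figure D2:**
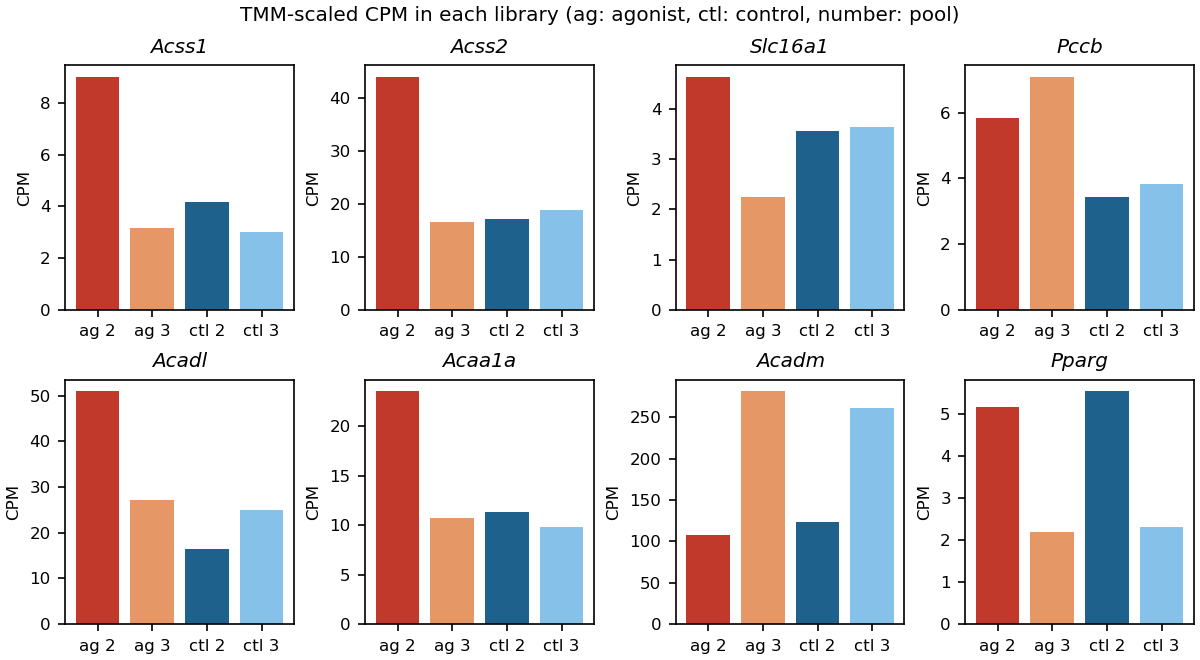
TMM-scaled CPM of 8 genes in the agonist libraries of pools 2 and 3 and the control libraries of pools 2 and 3, 1 bar per library. Acss1, Acss2, Acadl and Acaa1a peak in agonist replicate 2, Pccb is higher in both agonist libraries, and Acadm and Pparg split by pool.

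Pccb was higher past 1.5-fold in both pools, as were 3.16% of all tested genes, but did not pass the test. Pccb (chromosome 9, 100982032 to 101034898), the beta subunit of propionyl-CoA carboxylase, had 303 and 402 reads in the agonist and 150 and 200 reads in the control libraries. Its level was 5.83 and 7.09 CPM in the agonist libraries, against 3.45 and 3.83 CPM in the control libraries, so the groups did not overlap. This gave a log2 fold change of 0.83 (SE 0.41) with a 95% interval of -0.16 to 1.82, and edgeR's p was 0.0871 before and 0.9999 after adjustment. The value ran from 0.67 to 0.996 as each library was left out. The alpha subunit gene Pcca had 14.7 and 22.3 CPM in the agonist and 11.6 and 22.6 CPM in the control libraries, and its log2 fold change was 0.11 (SE 0.44). Its groups overlapped, and its level followed the pool. Bdh1, which interconverts the ketone bodies, had 5.17 and 5.34 CPM in the agonist libraries, against 7.21 and 5.92 CPM in the control libraries. Both agonist libraries lay below both controls, with a log2 fold change of -0.32 (SE 0.39).

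Of the 33 genes tested between agonist and control, 0 passed edgeR's quasi-likelihood test at an adjusted p of 0.05, as did 0% of all 18297 genes. At an unadjusted p under 0.05 the count was also 0 of 33, against 1.58% of all genes. DESeq2 and limma-voom called 0 of the 33 as well. With the pool as a block 1 of 33 had an unadjusted p under 0.05, against 3.53% of all genes. That gene was Acadl, with an edgeR adjusted p of 0.9998, and 0 of 33 passed the adjusted test with the block, against 0.00547% of all genes. The median log2 fold change of the 33 was -0.02, against -0.05 over all tested genes, with 15 higher and 18 lower. These values shifted as single libraries were left out, which leaves the pools unequal between the groups, so that the difference between pools enters. The median was 0.19 with 25 higher and 8 lower without agonist replicate 2, and -0.23 with 11 higher and 22 lower without agonist replicate 3. It was -0.09 with 12 higher and 21 lower without control replicate 2, and 0.21 with 25 higher and 8 lower without control replicate 3. Between other scalings, filters and tools it ran from -0.04 to 0.04. Single values ran from -0.69 for Ppargc1b to 0.91 for Acadl. The median SE was 0.38, against 0.50 for all genes. The 33 had a median level of 34.9 CPM in the agonist and 34.5 CPM in the control libraries, against 5.70 and 5.60 CPM for all tested genes.

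**Figure D3:**
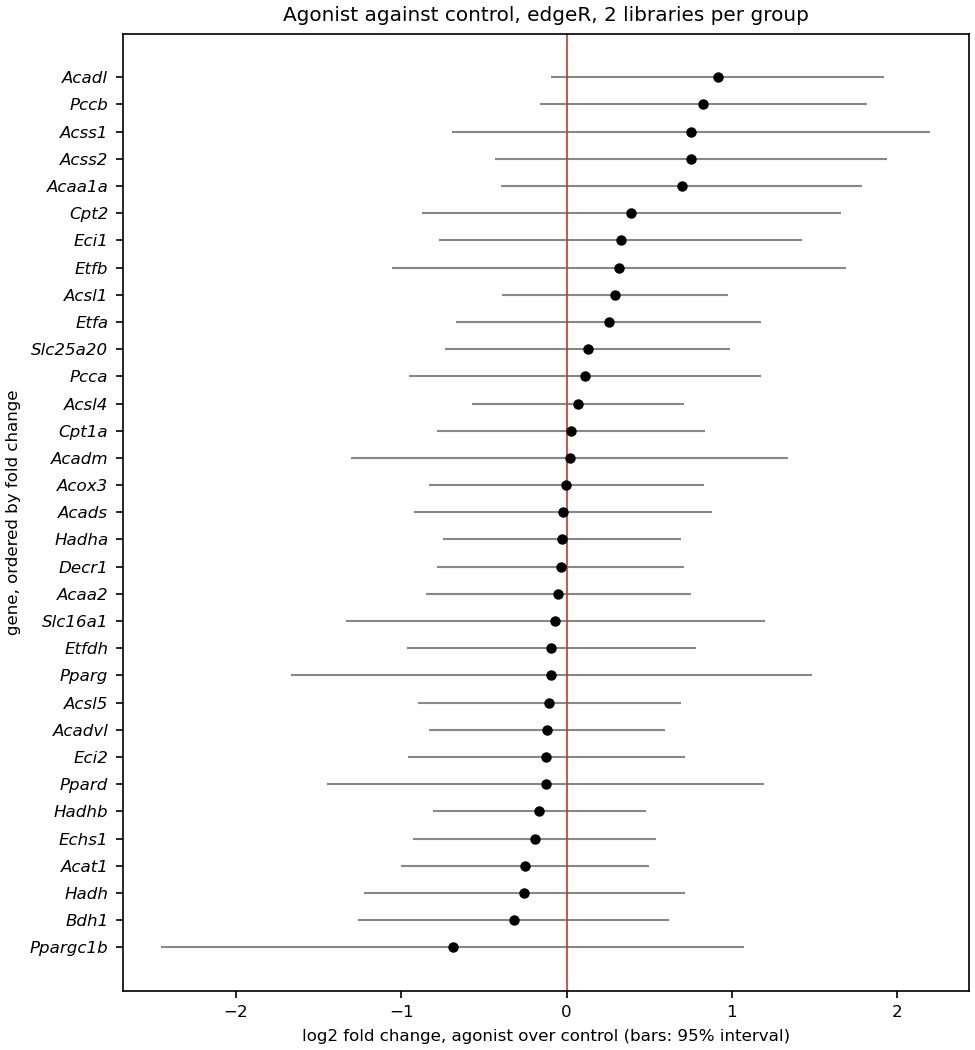
Log2 fold change of agonist over control for the 33 genes tested, with 95% intervals from edgeR's quasi-likelihood fit without the pool as a block (2 libraries per group). Every interval spans 0, from Ppargc1b at -0.69 to Acadl at 0.91.

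The acyl-CoA dehydrogenases begin each round of oxidation and are named for the chain length they prefer. Their log2 fold changes ran from -0.12 to 0.91 with overlapping 95% intervals, and none passed the test. Acadl (chromosome 1, 66830839 to 66863277), the long-chain enzyme, had 51.0 and 27.2 CPM in the agonist libraries, against 16.5 and 24.98 CPM in the control libraries. The groups did not overlap, yet agonist replicate 3 and control replicate 3 were close to each other. This gave a log2 fold change of 0.91 (SE 0.42) with a 95% interval of -0.09 to 1.92, and edgeR's p was 0.0682 before and 0.9999 after adjustment. Without the block, the log2 fold change was 0.43 when agonist replicate 2 was left out and 1.29 when agonist replicate 3 was. It was 0.65 without control replicate 2 and 1.33 without control replicate 3. Each of these runs leaves the pools unequal between the groups. Acadm (chromosome 3, 153922357 to 153944632), the medium-chain enzyme, had 108 and 282 CPM in the agonist and 124 and 261 CPM in the control libraries. Its log2 fold change was 0.02 (SE 0.55) and turned to -0.04 with the pool as a block, and its libraries separated by pool. Acads (short-chain) and Acadvl (very long-chain) had log2 fold changes of -0.02 (SE 0.37) and -0.12 (SE 0.29). In pool 2 the log2 difference of agonist minus control was 1.63 for Acadl, -0.19 for Acadm, -0.20 for Acads and -0.34 for Acadvl. In pool 3 it was 0.12, 0.11, 0.11 and 0.06 in the same order. Per kilobase, Acadm exceeded Acads by 6.19 and 9.90 times in the agonist and by 6.16 and 9.87 times in the control libraries. With all exons merged the means were 49.5 for Acadm and 9.30 for Acads.

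The carnitine shuttle showed no difference beyond the spread between libraries. Cpt1a, the enzyme of the outer membrane that limits entry of long-chain acids, had 50.5 and 77.6 CPM in the agonist and 53.2 and 72.5 CPM in the control libraries, with a log2 fold change of 0.03 (SE 0.34, 95% interval -0.79 to 0.84). Slc25a20, the carrier of the inner membrane, had 129.6 and 231 CPM in the agonist and 144 and 185 CPM in the control libraries. Its log2 fold change was 0.13 (SE 0.36). Cpt2, which re-forms acyl-CoA inside the mitochondrion, had 20.6 and 34.7 CPM in the agonist and 11.7 and 30.4 CPM in the control libraries. Control replicate 2 was its lowest library. The log2 fold change was 0.39 (SE 0.52), and 0.50 (SE 0.30) with the pool as a block. Without control replicate 2 it was -0.14, a run that leaves the pools unequal between the groups. All 3 genes were higher in pool 3 than in pool 2 in either condition.

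The synthetases that activate long-chain acids gave values between -0.11 for Acsl5 (SE 0.33) and 0.29 for Acsl1 (SE 0.28). Acsl1 had 48.7 and 54.6 CPM in the agonist libraries, against 38.0 and 46.4 CPM in the control libraries, without overlap. For Acsl4, which prefers arachidonate, it was 0.07 (SE 0.26).

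None of the later steps of the cycle passed the test either. Hadha and Hadhb, the subunits of the trifunctional protein, had log2 fold changes of -0.03 (SE 0.30) and -0.16 (SE 0.27). Per kilobase, Hadhb exceeded Hadha by 2.14 and 1.66 times in the agonist and by 1.96 and 2.19 times in the control libraries. With all exons merged the means were closer, 18.8 for Hadhb and 14.1 for Hadha. Acat1, the mitochondrial acetoacetyl-CoA thiolase, had 37.7 and 54.5 CPM in the agonist and 50.7 and 59.2 CPM in the control libraries (log2 fold change -0.25, SE 0.31). Echs1, Hadh and Acaa2 had values of -0.19, -0.25 and -0.05. For the auxiliary enzymes of unsaturated acids, the values were 0.33 (SE 0.45) for Eci1, -0.12 (SE 0.35) for Eci2 and -0.04 (SE 0.31) for Decr1. For the electron transfer flavoproteins they were 0.26 (SE 0.38) for Etfa, 0.32 (SE 0.57) for Etfb and -0.09 (SE 0.36) for Etfdh. In peroxisomes, the thiolase gene Acaa1a had 23.6 and 10.8 CPM in the agonist libraries, against 11.3 and 9.84 CPM in the control libraries. Its value of 0.70 (SE 0.45) was 0.06 without agonist replicate 2, a run that leaves the pools unequal between the groups. Acox3, an acyl-CoA oxidase gene, gave -0.00062 (SE 0.34).

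Of the PPAR family, Pparg and Ppard were read at low levels and Ppara almost not at all. Ppara, the receptor that drives oxidation genes in liver, had 0 and 0 reads in the agonist and 2 and 0 reads in the control libraries. Pparg, the receptor of fat cells that some macrophages and dendritic cells also use, had 5.15 and 2.19 CPM in the agonist and 5.54 and 2.30 CPM in the control libraries. Within each pool its wells were close, and the log2 fold change was -0.09 (SE 0.65). Ppard, which is expressed broadly, had 3.39 and 2.31 CPM in the agonist and 4.09 and 2.13 CPM in the control libraries (log2 fold change -0.12, SE 0.55). Ppargc1b, a coactivator of mitochondrial genes, had 0.885 and 0.617 CPM in the agonist libraries, against 1.70 and 0.727 CPM in the control libraries. Control replicate 2 was the highest. The log2 fold change was -0.69 (SE 0.73), and -0.59 (SE 0.69) with the pool as a block. Without control replicate 2 it was 0.04, a run that leaves the pools unequal between the groups.

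Set side by side within each pool, agonist and control wells differed more in pool 2 than in pool 3. The median absolute log2 difference of the 33 genes was 0.38 in pool 2 and 0.12 in pool 3, against 0.45 and 0.26 over all tested genes. In pool 2, 7 genes were higher past 1.5-fold (22.2% of all genes were) and 1 was lower (17.6%). They were Acadl, Acss2, Acss1, Eci1, Acaa1a, Cpt2 and Pccb, with Ppargc1b the lower one. In pool 3, 1 gene was higher past 1.5-fold, Pccb (10.5% of all genes), and 1 was lower, Slc16a1 (16.8%). Pccb was the only one of the 33 past 1.5-fold in both pools, with log2 differences of 0.75 in pool 2 and 0.88 in pool 3, where 3.16% of all genes were higher and 5.09% lower by that measure. Both agonist libraries lay above both controls for 4 genes, Acadl, Pccb, Acsl1 and Etfb (11.4% of all genes), and below them for 1, Bdh1 (13.5%). The agonist well was higher in both pools for 8 genes (21% of all genes) and lower in both for 8 (27.8%). In 13 genes the agonist well was lower in pool 2 and higher in pool 3 (28.1% of all genes), and they included Slc25a20, Acadm, Cpt1a and Hadha. The opposite order held for 4 genes, Acss2, Eci1, Pcca and Slc16a1 (22.5%).

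**Figure D4:**
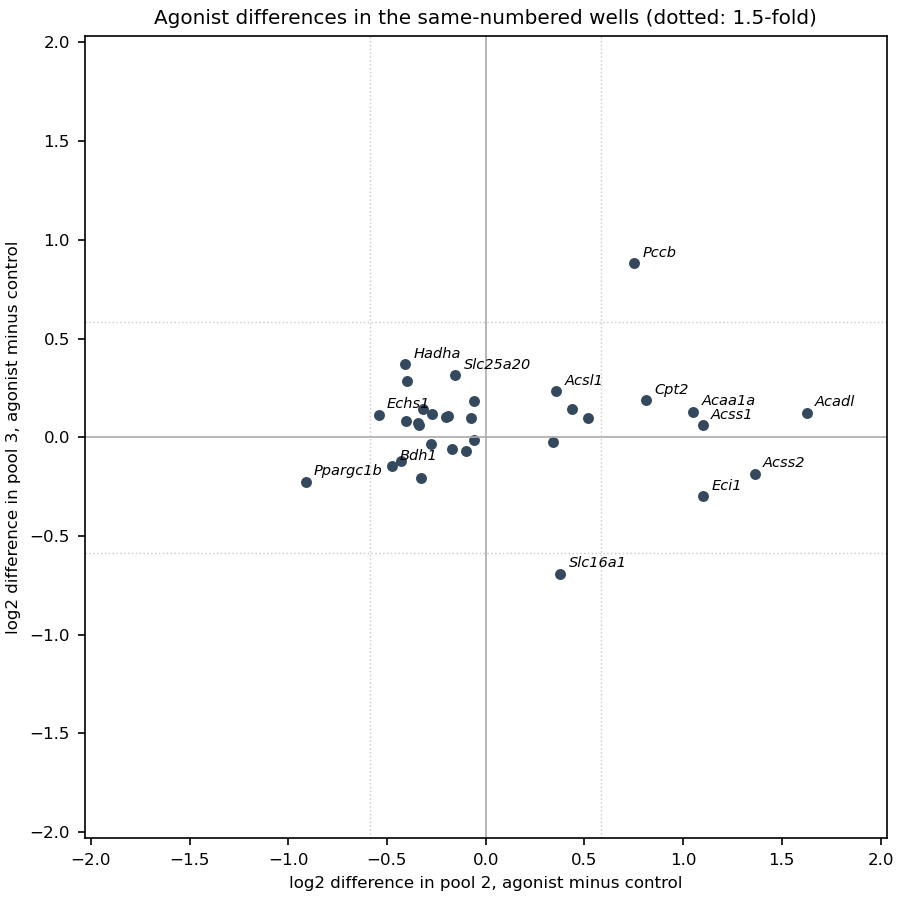
Log2 difference of agonist minus control in pool 2 (horizontal) and in pool 3 (vertical), 1 point per gene for the 33 tested, with dotted lines at 1.5-fold. Pccb lies past 1.5-fold in both pools (0.75 and 0.88), while Acadl reaches 1.63 in pool 2 and 0.12 in pool 3.

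Single libraries moved with these values. Agonist replicate 2 was the lowest of the 4 libraries in 16 of the 33 genes (48.5%, against 29.9% of all tested genes) and agonist replicate 3 the highest in 14 (42.4%, against 22.9%). Agonist replicate 2 was the highest in 7 genes (21.2%, against 25.7% of all tested genes), among them Acadl, Acss1, Acss2 and Acaa1a. Of 7 mast cell markers, 6 also had their highest level in that library. Mcpt4, a mast cell protease gene, had 189 and 38 reads in the agonist and 0 and 0 reads in the control libraries. The summed mast cell level, of which Kit made up most, was 450.0 and 832 CPM in the agonist and 475 and 790.1 CPM in the control libraries. The part of these cells in the values of Acadl, Acss1, Acss2 and Acaa1a was not tested.

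The pools differed in the same direction in both conditions for most of the oxidation genes. Of the 33 genes, 19 were higher in pool 3 than in pool 2 in both the agonist and the control wells (29.7% of all tested genes were), and 6 were lower in both (31.1%). All 3 genes of the carnitine shuttle, all 3 long-chain synthetase genes and 3 of 4 dehydrogenase genes were among the 19, while the receptor genes Pparg and Ppard and the coactivator gene Ppargc1b were among the 6. With 1 pool per arm the difference has no replicate check beyond the repeat wells, and no test was made. Past 1.5-fold in both conditions, 3 genes were higher in pool 3, Acadm, Cpt2 and Pcca (7.72% of all genes), and 1 was lower, Pparg (10.9%). Acadm had 282 CPM in the agonist and 261 CPM in the control well of pool 3, against 108 and 124 CPM in those of pool 2. The log2 difference of pool 3 over pool 2 was 1.38 in the agonist and 1.08 in the control wells for Acadm, 0.75 and 1.37 for Cpt2, and 0.60 and 0.96 for Pcca. For Pparg it was -1.22 in the agonist and -1.25 in the control wells. Hadh (0.71 and 0.58) and Etfa (0.56 and 0.85) lay just outside the 1.5-fold limit.

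**Figure D5:**
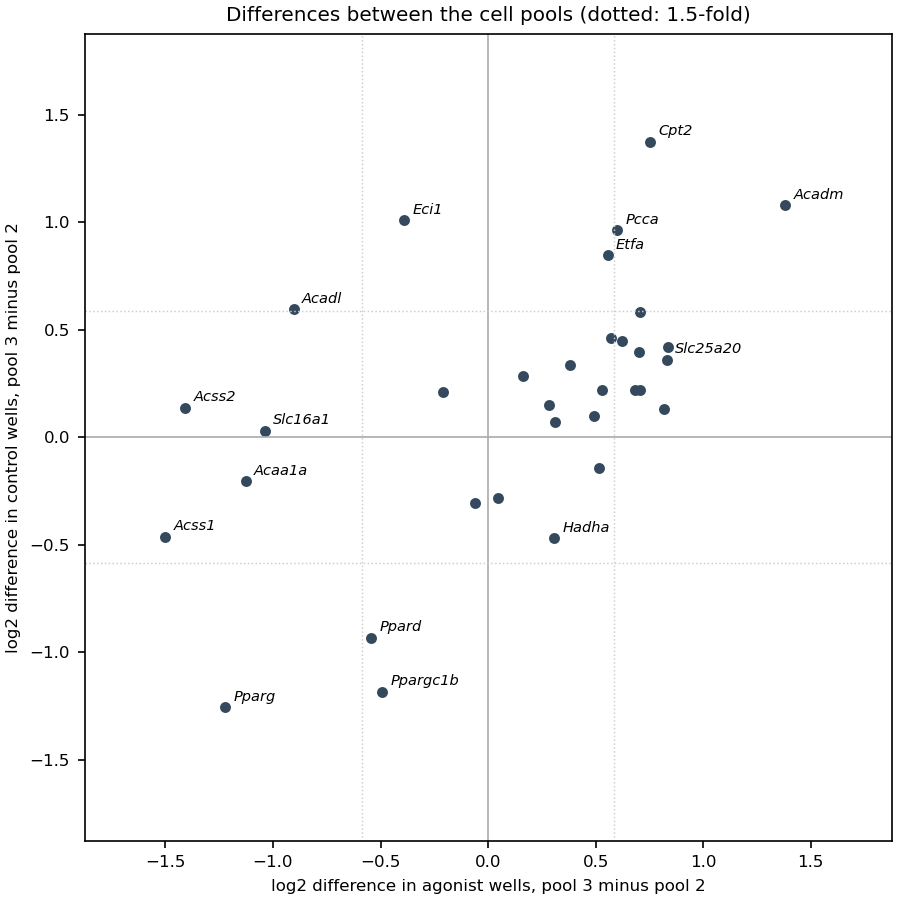
Log2 difference of pool 3 minus pool 2 in the agonist wells (horizontal) and in the control wells (vertical) for the 33 tested genes, with dotted lines at 1.5-fold. Acadm, Cpt2 and Pcca lie at the upper right, Pparg at the lower left, and the acetate genes Acss1 and Acss2 differ between the pools mainly in the agonist wells.

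Markers of other cells differed between the pools. Most of those of T, B, NK and plasmacytoid dendritic cells were lower with the agonist too. All 14 T cell markers were lower in pool 3 than in pool 2 in both conditions, and their summed level was 385 CPM in the agonist and 625 CPM in the control well of pool 3, against 980.3 and 1388 CPM in pool 2. Of the T cell markers, 13 of 14 were also lower in agonist than in control, 12 of them in both pools, with a median log2 fold change of -0.56. None of the 14 passed edgeR's adjusted test, and 8 had an unadjusted p under 0.05 with the pool as a block. Of 10 B cell markers 9 were also lower with the agonist, 8 of them in both pools. Of 8 NK cell markers 7 were lower, 6 in both pools, and of 8 plasmacytoid dendritic cell markers 7 were, 6 in both pools. Over all tested genes 27.8% were lower in both pools. With the block 0 B cell, 1 NK cell and 1 plasmacytoid marker had an unadjusted p under 0.05. Plasma cell markers summed to 152 and 74.7 CPM in the agonist and 495 and 302 CPM in the control libraries. Of the 7 tested, 2 were lower in both pools and 5 were higher with the agonist, and 1 passed the adjusted test with the block. Of 14 monocyte and macrophage markers 10 were lower with the agonist, 3 in both pools. Of 10 dendritic cell core markers 7 were, 3 in both pools. Of 8 migratory dendritic cell markers, 6 were higher with the agonist, 5 in both pools, against 21% of all tested genes. Their summed level was lower with the agonist in pool 2 and higher in pool 3. Of 10 B cell markers 9 were lower in pool 3, and of 14 monocyte and macrophage markers 9 were, with no marker of these lists at 0 in all libraries. Of 8 markers of migratory dendritic cells, 5 were higher in pool 3 in both conditions, and their sum was 17485 CPM in the agonist and 15728 CPM in the control well of pool 3, against 10738 and 13396 CPM in pool 2. The pools cannot be told apart from the sex of the mice, since pool 3 had reads of the Y-linked gene Ddx3y and pool 2 of Xist. The part of these markers in the pool differences of Acadm, Cpt2, Pcca and Pparg, and in the agonist differences of the 33 genes, was not tested.

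Other genes of the same pathways gave 0 calls in edgeR's unblocked test. None passed among 19 tested genes of mitochondrial oxidation (median log2 fold change -0.04), 15 of peroxisomal oxidation (-0.12), 13 of fatty acid uptake and activation (0.12), 7 of monocarboxylate transport (0.14), 10 of propionate and branched-chain metabolism (0.02), 5 of ketone metabolism (0.12) and 18 PPAR targets and regulators (-0.16). At an unadjusted p under 0.05 the count was 0 in each list, against 1.58% of all genes. In the blocked fit the count was 1 of the 5 ketone genes and 0 in each other list, against 3.53% of all genes. The smallest unblocked p was that of Mpc2, a subunit of the mitochondrial pyruvate carrier, with 29.1 and 14.7 CPM in the agonist and 7.28 and 14.1 CPM in the control libraries (log2 fold change 1.03, SE 0.50). Bsg, the chaperone that brings MCT1 to the cell surface, had 72.8 and 38.0 CPM in the agonist and 16.4 and 38.9 CPM in the control libraries (1.001, SE 0.52). In both genes the libraries of pool 3 were alike, and control replicate 2 was lowest and agonist replicate 2 highest. Aacs, which activates acetoacetate in the cytosol, had 74.1 and 71.3 CPM in the agonist and 22.5 and 59.1 CPM in the control libraries (0.83, SE 0.47). It was the ketone gene counted with the block, with a log2 fold change of 0.99 (SE 0.36) and an edgeR p of 0.0225 before and 0.9998 after adjustment. Values were 0.84 (SE 0.56) for Acad9 and -0.82 (SE 0.56) for Mlycd in mitochondrial oxidation, and 0.85 (SE 0.48) for the peroxisomal import receptor Pex5 and 0.68 (SE 0.46) for the transporter Abcd3. Those of Slc27a1, a fatty acid transport protein, and Lipe, hormone-sensitive lipase, were 0.91 (SE 0.56) and 0.56 (SE 0.39). Bckdha and Hibadh, of branched-chain amino acid breakdown, had -0.41 (SE 0.41) and 0.28 (SE 0.32), and Rxra, the partner receptor of the PPARs, had -0.45 (SE 0.33).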

How the data were processed

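The authors deposited whole-number read counts per gene, 1 file per library, without normalization. The submitters' processing notes name STAR 2.7, HTSeq 0.11.1 and GRCm38 (mm10), and the strand setting is not given in the sources used here. Lines for reads outside genes (16.0% to 20.0% of a library), over several genes (5.77% to 6.50%) or with several alignments (6.54% to 6.99%) entered neither library sizes nor tests. Coordinates and transcript lengths came from GENCODE M21, which matched all gene rows, and promoters from RefSeq (GRCm38.p6).

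Counts were tested with edgeR 4.0.16 in R 4.3.3 (quasi-likelihood test, two-sided, group as the single term). Its default filter, with a minimum count of 10, kept 18297 genes, TMM factors were 0.947 to 1.05, and Benjamini-Hochberg adjustment ran over every tested gene at a threshold of 0.05. SEs were derived from the fold change and the F statistic, and differences between single libraries used a prior count of 2. Alternatives were limma-voom (limma 3.58.1), DESeq2 1.42.0, other scalings, filters and prior counts, and leaving out libraries.

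Per the labels' protocols each pool was split into an agonist and a control well, so the title numbers pair libraries. Same-numbered libraries deviated together (Pearson r = 0.288 across 18297 genes, which are not independent replicates), pool 2 had Xist reads and pool 3 Ddx3y reads. An edgeR fit with the pool as block was run for that reason. On counts simulated without any difference between pools, this blocked fit made a larger share of false calls than the unblocked fit. Its calls may be too many. Those counts lack the pairing of these wells, so they cannot show its share of false calls here. P-values measure the spread between these wells and pools. Values in every library are given for the transport, acetate, propionate, ketone, carnitine and PPAR genes, the 10 genes with the smallest p and up to 6 genes with the largest pool difference, and up to 2 genes with the smallest p are named from each other pathway list. One gene that this rule names is not reported here. Members and lists were chosen with earlier results of these data known.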

Additional observations from a re-analysis of the deposited data

How the results depend on the processing

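The count of 0 adjusted calls among the 33 tested genes held in each alternative run, which were edgeR with the pool as a replicate block, RLE size factors, total counts only, no filter and a stricter filter, DESeq2 without and with the block, limma-voom, and each library left out in turn (0 to 0). Leaving out a library leaves 1 library in that group, which is assumed to vary like the other group, so those runs are weak evidence of stability. Over all genes, the 0 calls became 1 with the pool as a block, 9 with no filter, 7 in DESeq2, 6 in DESeq2 with the block, and 0 to 2 as libraries were left out. The pairing changed no call among the 33. Of the 33, the number at an unadjusted p under 0.05 was 1 with the block, 1 with no filter, 1 in DESeq2, 1 in DESeq2 with the block, 4 without agonist replicate 3 and 1 without control replicate 3. Over all genes the share was 3.53% with the block, 3.23% with no filter, 2.14% in DESeq2, 4.23% in DESeq2 with the block, 4.60% without agonist replicate 3 and 4.57% without control replicate 3. The count past 1.5-fold in both pools stayed at 1 with the other scalings and prior counts, and the count between the pools was 4 or 5. Ppargc1b did not pass the stricter filter. No log2 fold change whose sign changed was called in any setting. The values that changed sign between scalings, filters and tools all lay close to 0. With the pool as a replicate block it was -0.0404 for Acadm. With total counts only it was -0.0156 for Acadm. In DESeq2 with the block it was -0.0116 for Acadm and 0.0103 for Hadha. In limma-voom it was -0.0431 for Acadm. With RLE size factors it was 0.0114 for Acads, 0.00191 for Hadha and 0.0304 for Acox3. With the stricter filter it was 0.0295 for Acads, 0.0251 for Hadha, 0.0179 for Decr1, 0.0451 for Acox3 and 0.0110 for Slc16a1. In DESeq2 it was 0.0114 for Acads, 0.00193 for Hadha and 0.0304 for Acox3. With no filter it was 0.00201 for Acox3. As each library was left out, which leaves the pools unequal between the groups so that their difference enters, 10 to 14 of the 33 changed sign, and the log2 fold changes ran as follows: Cpt1a -0.32 to 0.34, Cpt2 -0.14 to 1.31, Slc25a20 -0.35 to 0.52, Acadm -0.84 to 0.72, Acads -0.42 to 0.32, Acadvl -0.39 to 0.14, Hadh -0.66 to 0.13, Hadha -0.20 to 0.22, Echs1 -0.48 to 0.0768, Eci1 -0.0922 to 1.003, Eci2 -0.53 to 0.22, Decr1 -0.24 to 0.21, Etfa -0.11 to 0.81, Etfdh -0.58 to 0.30, Acaa2 -0.44 to 0.29, Acat1 -0.55 to 0.0221, Acox3 -0.47 to 0.39, Ppard -0.44 to 0.42, Pparg -0.80 to 0.67, Ppargc1b -1.10 to 0.0437, Acss1 -0.16 to 1.32, Acss2 -0.0833 to 1.29, Slc16a1 -0.65 to 0.36, Pcca -0.29 to 0.74, Acsl4 -0.10 to 0.25, Acsl5 -0.43 to 0.21. The cause of the changes between tools and filters was not tested. Ppara and Slc5a8 did not pass the filter on low counts and were not tested.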

Other observations

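Values follow for 3 more genes of fatty acid supply and its control, picked after their values were seen. Cd36, a scavenger receptor that takes up long-chain acids, had 208 and 385 CPM in the agonist and 190.02 and 279 CPM in the control libraries. Lipa, the lysosomal lipase, had 384 and 620.4 CPM in the agonist and 454 and 469 CPM in the control libraries, so that the pools differed mainly in the agonist wells. Ppargc1a, a coactivator best known from muscle and brown fat, had 15.5 and 7.39 CPM in the agonist and 16.5 and 3.41 CPM in the control libraries, lower in both wells of pool 3. None of the 3 passed edgeR's test between agonist and control (log2 fold change 0.34, SE 0.38, for Cd36, 0.12, SE 0.31, for Lipa and 0.20, SE 0.76, for Ppargc1a).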
